A study of Mus musculus with 6 samples.

Results

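The 83 genes described here encode the proteins of the cytosolic ribosome and their named paralogues. They were taken from the 54281 genes of a count table of GLUTag cells as the protein-coding genes named Rplp0, Rplp1, Rplp2 or Rpsa, or named Rpl or Rps with a number and at most a short suffix, leaving out the Rps6k kinases. There are 52 genes of the large (60S) subunit, whose symbols start with Rpl, and 31 of the small (40S) subunit, whose symbols start with Rps. Of these, 76 were counted as canonical genes and 7 as paralogues (Rpl3l, Rpl7l1, Rpl10l, Rpl22l1, Rpl36al, Rpl39l and Rps27l). The measure was 3′ mRNA sequencing, which reads only the tail end of messages with a poly(A) tail, so long and short transcripts give like counts. Levels are given as CPM, the gene's count scaled to a library total of 1e+06 counts, and can be compared between genes on that scale.

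GLUTag is a mouse enteroendocrine line, derived from a colonic tumour of a mouse that carried a viral oncogene under the proglucagon promoter, and used as a model of the GLP-1-secreting L-cell. All 6 libraries came from untreated cells in DMEM with 1 g/L glucose, GlutaMAX and 10% heat-inactivated FBS, grown for 48 h on Matrigel. The 3 libraries of plate 1 came from passage 23 and the 3 of plate 2 from passage 27, and these labels coincide, so their effects cannot be told apart. P-values between plates measure the spread between wells of 2 cultures. The columns of plate 2 carry no replicate number of the sample labels, and its libraries are named here by their total count (lowest, middle or highest).

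Library totals ran from 21399987 to 36488198 counts. All 7 enteroendocrine markers (Gcg, Cck, Chga, Chgb, Scg2, Neurod1 and Pcsk1) were above 3 counts in every library, with a summed level of 5013 to 6892 CPM. Genes listed for other cells were low. The 4 listed for enterocytes (Sis, Apob, Vil1 and Epcam), not all of them particular to that cell type, summed to 1.26 to 3.45 CPM. The sum was 4.54 to 6.96 CPM for 3 fibroblast genes and 0.333 to 1.12 CPM for 3 leukocyte genes. Sis, Apob and Adgre1 did not exceed 3 counts in any library. The plate 2 library with the middle total stood apart from the rest: 5031 genes averaged 30 CPM or above, and in this library 346 of them fell short of the remaining plate 2 libraries by over 2-fold and 2 exceeded them by as much. In any other library, set against its own plate, at most 46 genes passed this fold in a given direction. Values are therefore given with and without that library where they rest on it.

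The ribosome reads messenger RNA on its small subunit and joins amino acids on its large subunit. Each subunit holds ribosomal RNA and a set of small, mostly basic proteins that are nearly all needed in equal number, so their genes are among the most strongly expressed in dividing and secreting cells. Mammalian ribosomal protein messages are known to start with a cytosine followed by a run of pyrimidines, the terminal oligopyrimidine tract, through which growth signalling by mTOR and the RNA-binding protein Larp1 sets their translation. A second feature of these genes in mammals is the large number of processed copies scattered over the genome, most of them pseudogenes.

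Start-site windows from RefSeq (GRCm38.p6), 250 bases before to 50 bases after the start of a gene, were found for 63 of the 83 genes. In the 100 bases around the start, 69.8% of the 63 genes had a run of at least 10 pyrimidines on the coding strand, against 20.6% of 27025 genes with a window. The median of the longest run was 10 bases in the ribosomal protein genes and 7 bases in all genes. The 8 windows below are shown because they are those of the most highly expressed genes whose longest run has at least 10 bases and lies wholly within 40 bases before to 30 bases after the RefSeq start; the longest pyrimidine run is in capitals.
Rps12: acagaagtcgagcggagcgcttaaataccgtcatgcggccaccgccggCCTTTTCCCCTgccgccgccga
Rpl13a: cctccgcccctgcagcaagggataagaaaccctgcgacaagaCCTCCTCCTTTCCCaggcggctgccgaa
Rpl27a: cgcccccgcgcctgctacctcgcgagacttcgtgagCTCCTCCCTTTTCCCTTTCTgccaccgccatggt
Rps24: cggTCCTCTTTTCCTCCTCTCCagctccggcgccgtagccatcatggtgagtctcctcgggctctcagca
Rplp2: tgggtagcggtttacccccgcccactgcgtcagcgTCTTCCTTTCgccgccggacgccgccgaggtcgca
Rpl35: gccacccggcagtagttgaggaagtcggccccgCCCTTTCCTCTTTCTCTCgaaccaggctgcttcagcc
Rps15a: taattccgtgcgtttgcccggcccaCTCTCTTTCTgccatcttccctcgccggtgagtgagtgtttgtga
Rpl11: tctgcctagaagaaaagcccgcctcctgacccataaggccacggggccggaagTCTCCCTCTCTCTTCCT
In GRCm38 these lie at chr10:23787180-23787249 (minus strand) for Rps12, chr7:45128716-45128785 (minus) for Rpl13a, chr7:109519155-109519224 (plus) for Rpl27a, chr14:24490713-24490782 (plus) for Rps24, chr7:141447611-141447680 (plus) for Rplp2, chr2:39005102-39005171 (minus) for Rpl35, chr7:118116118-118116187 (minus) for Rps15a and chr4:136053364-136053433 (minus) for Rpl11. The run is 20 bases long in Rpl27a, 19 in Rps24, 18 in Rpl35 and 17 in Rpl11.

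Other short sequences were searched in the same windows, a gene counting if any of its windows held the letters. CTTTCC, read on the coding strand within 50 bases of the start, was present in 31.7% of the ribosomal protein genes and 5.43% of all genes. CTCTTTCC, which contains CTTTCC, was present in 11.1% and 0.529%. Read on both strands of the whole 300 bases, CCGGAAGT, the core bound by Ets-family factors such as GABP, was present in 19.0% and 4.31%, and AAGATGGC, the core bound by YY1, in 9.52% and 3.19%. TATAAA within 50 bases of the start was present in 7.94% and 4.05%. Among the 9266 genes that had a window and reached 1 CPM in all 6 libraries, CCGGAAGT was present in 9.73%, AAGATGGC in 5.68% and a run of at least 10 pyrimidines in 19.2%. These are matches of letters and not sites of binding.

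The ribosomal protein genes together took close to 1 count in 10. Their summed share was 10.1%, 9.98% and 10.2% of the total in plate 1 replicates 1, 2 and 3, and 9.36%, 11.1% and 8.89% in the plate 2 libraries with the lowest, middle and highest total. Plate 1 was tight, at 10.1% ± 0.0964 (SD, n = 3), and plate 2 was wide, at 9.80% ± 1.19 (SD, n = 3), because its middle library was the highest of the 6 and its other libraries were the lowest. On this scale of the total count the plates overlapped, and the difference, -0.295 percentage points, was smaller than the spread within plate 2. The direction of this difference rested on single libraries: it was -0.966 without the plate 2 middle library, -0.0775 without the lowest and 0.158 without the highest. When totals were multiplied by TMM factors, the difference was -2.14, larger than the spread within plate 2, and the plates did not overlap. Large-subunit genes took 4.60% to 5.86% and small-subunit genes 4.29% to 5.28%, and both were highest in the plate 2 middle library and lowest in the plate 2 library with the highest total. Genes of the mitochondrial chromosome took 3.98% to 4.85% of the total in plate 1 and 4.62%, 5.32% and 7.27% in the plate 2 libraries with the lowest, middle and highest total. With those genes left out of the total, the plate difference was -0.156 percentage points.

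**Figure D1:**
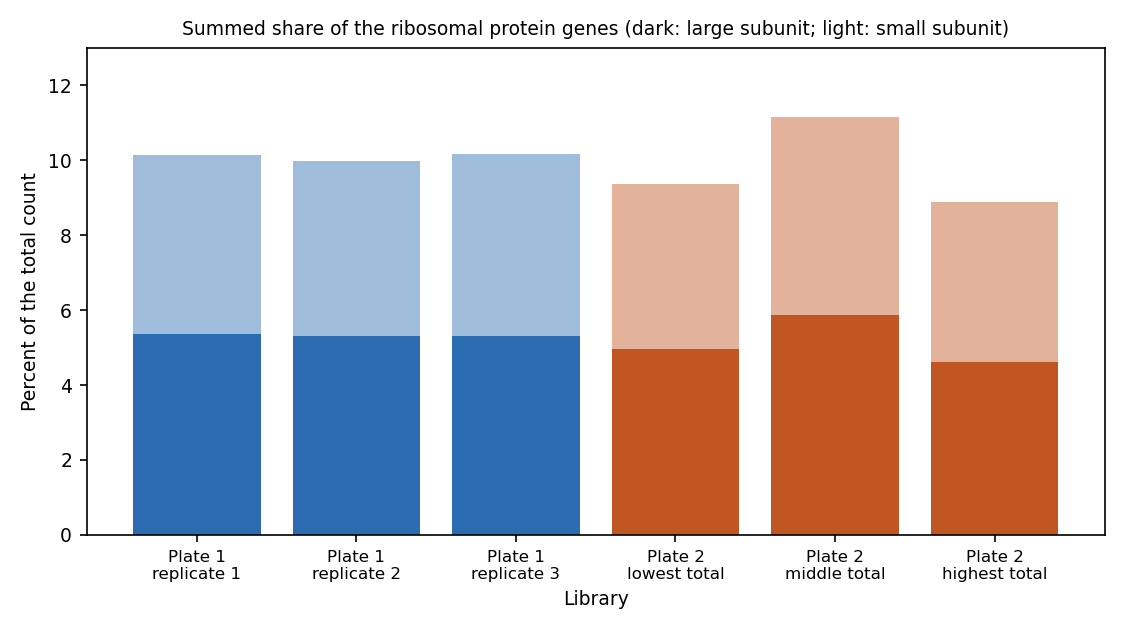
Summed percent of the total count held by the 83 ribosomal protein genes in each of the 6 libraries, with large-subunit genes (dark) below small-subunit genes (light), plate 1 in blue and plate 2 in orange. The 3 plate 1 libraries lie between 9.98% and 10.2%, and those of plate 2 run from 8.89% to 11.1%.

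Of the 100 genes with the highest mean CPM, 40 were ribosomal protein genes, as were 61 of the top 200. The 76 canonical genes had a median of 1117 CPM, with a lower quartile of 708 CPM and an upper quartile of 1565 CPM, a range of 2.21-fold between quartiles for proteins that the ribosome holds, with few exceptions, in equal number. For comparison, 12360 genes reached 1 CPM in all 6 libraries, and these had a median of 21.4 CPM. In every library 74 of the 76 canonical genes were above 100 CPM, the exceptions being Rpl10 and Rps2. The small-subunit genes had a higher median than the large-subunit genes in each of the 6 libraries, 1242 against 920 CPM over the means, with the narrowest gap in plate 1 replicate 1 (1260 against 1008 CPM). These medians leave out near-identical copies, described below. Such copies held over 50% of the combined level for Rpl10, Rpl21, Rpl9 and Rpl36a of the large subunit and Rps2 and Rps18 of the small.

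**Figure D2:**
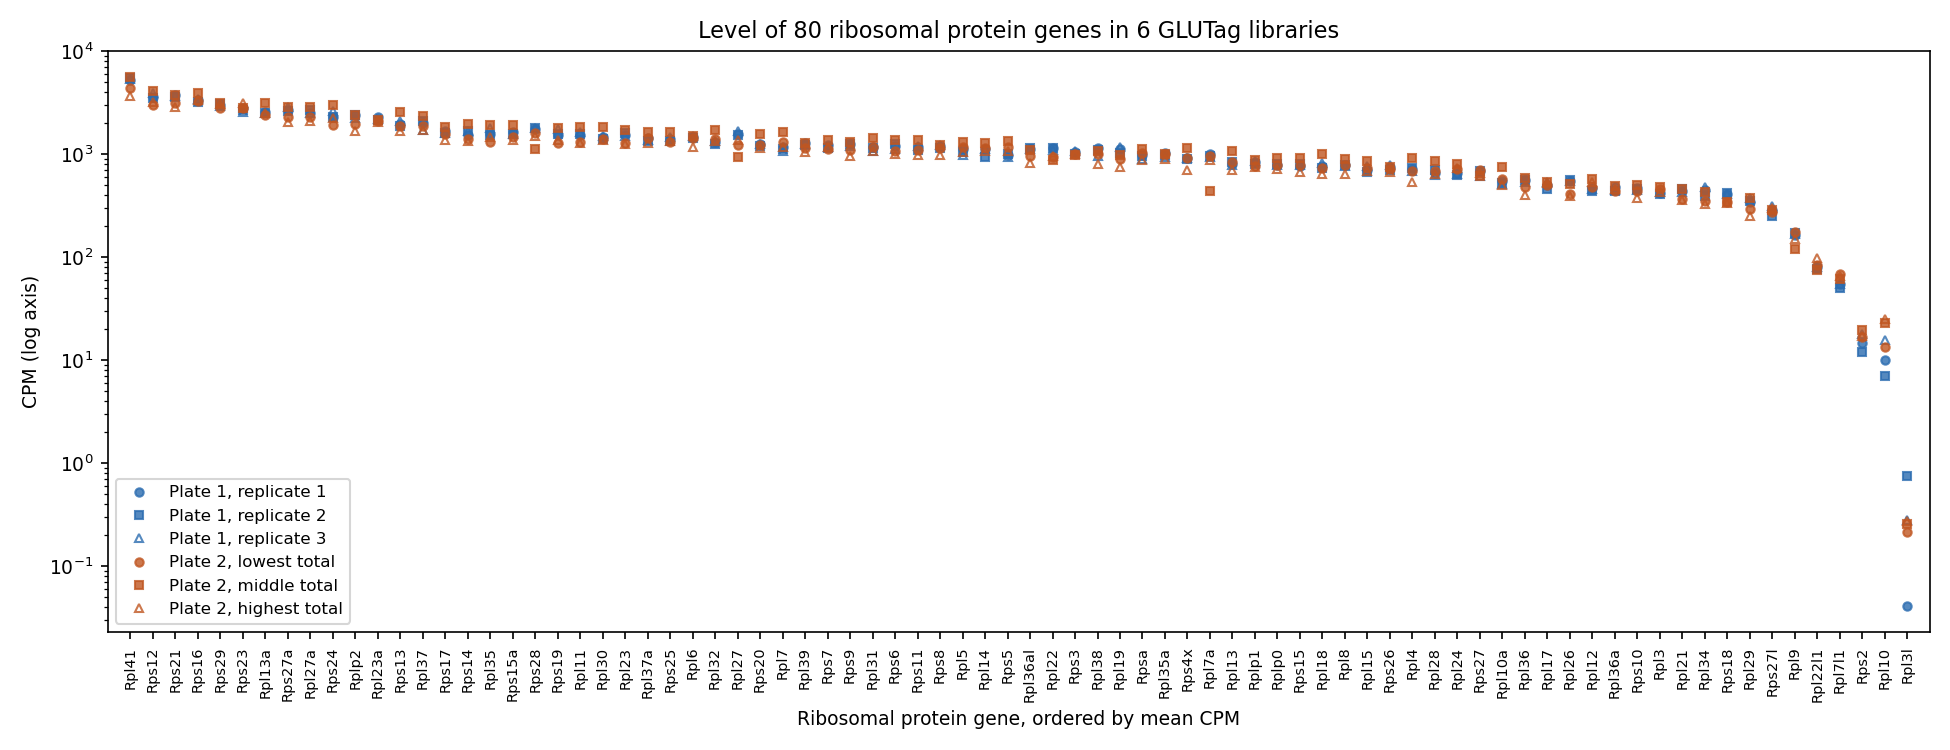
CPM on a log axis of 80 of the 81 ribosomal protein genes with a count in every library (1 is not reported here), ordered by mean, with 1 point per library (blue plate 1, orange plate 2). Among the canonical genes, levels fall slowly from Rpl41 at 4953 CPM to Rpl29 at 332 CPM and then drop to Rpl9, Rps2 and Rpl10, and the lowest points plotted are those of the paralogue Rpl3l. Rpl7a, Rps28 and Rpl27 each have 1 low point, from the plate 2 middle library.

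The highest level was that of Rpl41, which encodes a very short basic peptide at the junction of the subunits (chr10:128548114-128549305, minus strand). It had 5242, 5477 and 5392 CPM in plate 1 and 4342, 5591 and 3673 CPM in the plate 2 libraries with the lowest, middle and highest total. It ranked 11 among all genes, and it exceeded the next gene, Rps12, in all 6 libraries. The 4 genes after it all belong to the small subunit as long as near-identical copies, described below, are not added. With copies added, Rplp2 of the large subunit had 4129 CPM and Rps12 3625 CPM. Rps12, a protein of the 40S beak, had 3555, 3540 and 3950 CPM in plate 1 and 3010, 4140 and 3199 CPM in plate 2. Rps21 had 3781, 3609 and 3680 CPM, then 3173, 3779 and 2897 CPM. Rps16, which reaches towards the decoding centre, had 3394, 3177 and 3446 CPM, then 3251, 3924 and 3325 CPM. Rps29, a zinc-binding protein of the 40S head, had 2978, 3060 and 2938 CPM, then 2814, 3160 and 3086 CPM. Rps12 and Rps21 changed places between libraries, as did Rps21 and Rps16, while Rps16 was above Rps29 in all 6. Of 75 neighbouring pairs in the order of the canonical genes, 6 kept their order in every library, so the order within the list is loose at most places.

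The 3 P-stalk genes, whose acidic proteins recruit the translational GTPases, were unequal. Rplp0, the base of the stalk, had 780, 795 and 784 CPM in plate 1 and 791, 923 and 714 CPM in plate 2. Rplp1 had 835, 801 and 864 CPM, then 766, 888 and 748 CPM, close to Rplp0 although the stalk holds more copies of it. Rplp2, its partner in the same dimer, had 2391, 2384 and 2226 CPM, then 1962, 2405 and 1679 CPM. Rplp2 was above both others in all 6 libraries. Rpsa, a small-subunit protein also known as a laminin receptor, had 980, 956 and 908 CPM, then 1029, 1128 and 888 CPM.

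At the other end of the order stood Rpl10 and Rps2, far below all other canonical genes. Rpl10 (chrX:74270812-74273135, plus strand), which joins the large subunit in a late step of its assembly, had 10.1, 7.05 and 15.8 CPM in plate 1 and 13.5, 23.2 and 25.2 CPM in plate 2. Rps2 (chr17:24718116-24721929, plus strand), which lines the mRNA entry channel, had 14.6, 12.1 and 18.0 CPM, then 16.8, 19.9 and 17.3 CPM. They ranked 7201 and 7066 among all genes. The next were Rpl9 with 163, 171 and 167 CPM, then 174, 121 and 151 CPM, Rpl29 with 344, 355 and 377 CPM, then 293, 373 and 250 CPM, and Rps18 with 412, 421 and 410 CPM, then 343, 346 and 336 CPM. The spread from Rpl41 to the lowest canonical gene was 313-fold, and 31.4-fold with Rpl10 and Rps2 left aside. With near-identical copies, described next, added to each gene, it was 12.3-fold, from Rpl41 at 5087 CPM to Rpl29 at 413 CPM.

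Several ribosomal protein transcripts have near-identical copies among the other genes of the annotation, and some of these copies carried many counts. A copy was defined here as another gene of the table with a transcript that matched at least 110 bases of the last 200 bases of a ribosomal protein transcript at 95% identity or more, the stretch that 3′ reads cover. By this definition 63 of the 83 genes had at least 1 copy and 20 had none, with 598 copies in all, of which 188 averaged 1 CPM or more. The copies took 1.01% to 1.24% of each library's total. They held over 10% of the combined level for 20 genes and over 50% for 6 genes (Rpl10, Rps2, Rpl21, Rpl9, Rps18 and Rpl36a). The definition was chosen after the low levels of Rpl10 and Rps2 had been seen.

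For Rpl10, 99.2% of the combined level lay on copies. Rpl10-ps3 (chr9:50344201-50344968, minus strand), which the annotation lists as protein-coding, had 1792, 1709 and 1799 CPM in plate 1 and 1879, 2278 and 1893 CPM in plate 2, and its 645 coding bases are the same as those of Rpl10. Together Rpl10 and its copies had 1920 CPM ± 207 (SD, n = 6), above the upper quartile of the canonical genes. The last 60 coding bases (positions 586 to 645 from the first base of the start codon, GENCODE M21 transcripts) are shown for Rpl10, for this copy and for the testis-expressed paralogue Rpl10l, with the 7 bases that differ between Rpl10 and Rpl10l in capitals.
Rpl10: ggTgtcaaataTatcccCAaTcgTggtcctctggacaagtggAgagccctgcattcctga
Rpl10-ps3: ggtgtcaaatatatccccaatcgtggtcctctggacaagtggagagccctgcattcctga
Rpl10l: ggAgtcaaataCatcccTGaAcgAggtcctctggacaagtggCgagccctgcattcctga
Rpl10 and Rpl10-ps3 do not differ in these letters, whereas Rpl10l has 84.8% identity with Rpl10 over its coding sequence and did not exceed 2 counts in any library.

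For Rps2, Rps2-ps10, a transcribed pseudogene, had 638, 613 and 610 CPM in plate 1 and 728, 736 and 674 CPM in plate 2, and Rps2 with its 45 copies had 716 CPM ± 61.1 (SD, n = 6). For Rplp2, the other gene was Wdr89 (chr12:75630596-75669537, minus strand), a protein-coding gene with a transcript that matches the last 200 bases of Rplp2 at 100% identity. Wdr89 had 2021, 2152 and 2301 CPM in plate 1 and 1733, 2157 and 1333 CPM in plate 2, close to the level of Rplp2 in each library. For Rpl21, 58 copies brought a mean of 419 CPM to 1599 CPM, the largest of them Gm13370 at 822 CPM. Rpl9 went from 158 to 478 CPM with its copies added, nearly all of it on Rpl9-ps6 at 319 CPM. The levels of genes with such copies are therefore uncertain in this table. How many reads came from each locus was not tested.

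**Figure D3:**
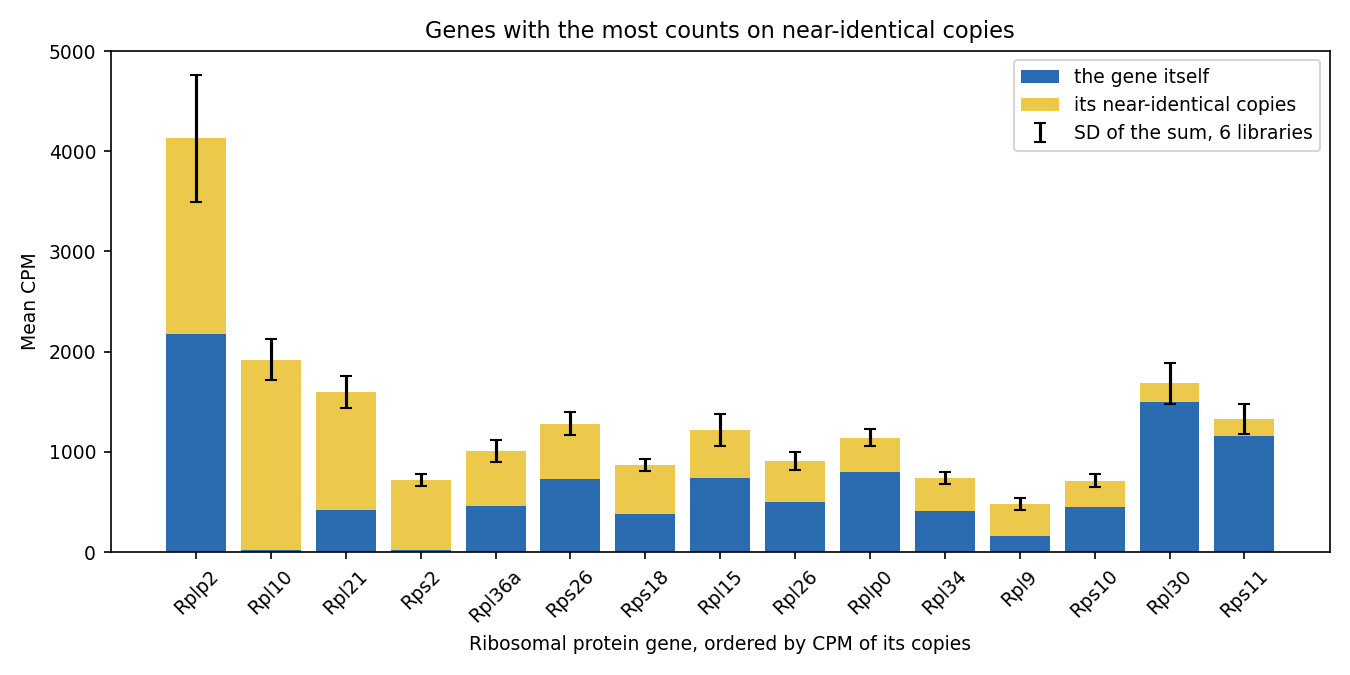
Mean CPM over 6 libraries of the 15 genes with the most counts on near-identical copies, as stacked bars of the gene itself (blue) and its copies (yellow), with the SD of the sum. Rpl10 and Rps2 are almost wholly on copies, and Rplp2 with its copies reaches 4129 CPM.

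The 7 paralogue pairs were compared within each library as the log2 ratio of canonical gene to paralogue, with 1 CPM added to each. In 6 pairs the canonical gene was higher in 6 of 6 libraries, and in the pair Rpl36a and Rpl36al the paralogue was higher in 6 of 6. Each pair gave an exact two-sided sign-flip permutation p of 0.03125, the smallest that 6 libraries allow, and 0.03125 after Benjamini-Hochberg adjustment over the 7 pairs. The 6 libraries are wells of 2 cultures, 3 of each, so this p too measures only the spread between wells. The mean log2 ratio was 3.81 in plate 1 and 3.43 in plate 2 for Rpl22 over Rpl22l1, and -1.31 and -1.04 for Rpl36a over Rpl36al. In the same order of plates, it was 3.47 and 4.37 for Rpl10 over Rpl10l, and 8.31 and 8.52 for Rpl3 over Rpl3l. For Rpl39 over Rpl39l it was 10.3 and 10.0, for Rps27 over Rps27l 1.22 and 1.18, and for Rpl7 over Rpl7l1 4.37 in both.

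Paralogues known from other tissues were at or near 0. Rpl3l, the form of striated muscle, had 1, 17 and 6 counts in plate 1 and 6, 8 and 10 counts in plate 2, against 411 to 481 CPM for Rpl3. Rpl10l had 2 counts in 1 plate 1 library, 1 count in 1 plate 2 library and 0 in the other 4. Rpl39l, known from testis and some tumours, had 0 counts in all 3 plate 1 libraries and 1, 4 and 5 counts in plate 2, against 1062 to 1297 CPM for Rpl39, which lines the exit tunnel. A count of 0 allows up to 3 counts, which is 0.0822 to 0.140 CPM over the 6 libraries. The log2 ratio was 8.42 ± 0.284 for Rpl3 over Rpl3l and 10.2 ± 0.170 for Rpl39 over Rpl39l (SD, n = 6), and it was 3.92 ± 0.654 for Rpl10 over Rpl10l, where the canonical gene itself was low. With paralogues this low, the size of all 3 ratios depended on the pseudocount. With 0.1 CPM and 5 CPM added, it was 10.3 and 6.39 for Rpl3 over Rpl3l, 13.1 and 7.91 for Rpl39 over Rpl39l, and 6.95 and 1.98 for Rpl10 over Rpl10l. The last ratio was 10.9 with near-identical copies counted with each gene.

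Other paralogues were expressed. Rpl7l1, a nucleolar relative of Rpl7, had 55.5, 50.8 and 54.6 CPM in plate 1 and 68.2, 60.9 and 65.7 CPM in plate 2, and Rpl7 exceeded it by 4.37 ± 0.214 on the log2 scale. Rpl7 had 1181, 1134 and 1078 CPM, then 1314, 1657 and 1166 CPM. Rpl22l1, which can replace the RNA-binding protein Rpl22 in the ribosome, had 80.3, 76.8 and 81.2 CPM, then 84.3, 75.6 and 97.3 CPM. Rpl22 had 1147, 1140 and 1101 CPM in plate 1 and 946, 879 and 963 CPM in plate 2, and the log2 ratio was 3.62 ± 0.228 (SD, n = 6). Rps27l, a target of p53, had 288, 252 and 316 CPM, then 274, 288 and 304 CPM, against 687, 686 and 615 CPM, then 696, 619 and 659 CPM for Rps27, a log2 ratio of 1.20 ± 0.176 (SD, n = 6).

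Rpl36al was the only one of the 7 paralogues above its canonical gene. Rpl36al, on chromosome 12, had 1123, 1141 and 1122 CPM in plate 1 and 955, 1096 and 830 CPM in plate 2, and Rpl36a, on chromosome X, had 479, 435 and 453 CPM, then 444, 495 and 456 CPM. The log2 ratio of Rpl36a to Rpl36al was -1.17 ± 0.184 (SD, n = 6). However, Rpl36a has a copy, Rpl36a-ps1 on chromosome 14, whose transcript matches its last 200 bases at 100% identity and which had 610, 664 and 625 CPM, then 423, 566 and 415 CPM. With near-identical copies added to each gene, Rpl36a had 1012 CPM and Rpl36al 1048 CPM, the log2 ratio was -0.05, and the adjusted exact permutation p was 0.188. The last 60 coding bases (positions 262 to 321) are shown for these 3 genes, with the 2 bases that differ between Rpl36a and Rpl36al in capitals.
Rpl36a: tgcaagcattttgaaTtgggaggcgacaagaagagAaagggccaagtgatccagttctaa
Rpl36a-ps1: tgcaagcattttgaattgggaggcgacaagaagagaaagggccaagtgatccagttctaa
Rpl36al: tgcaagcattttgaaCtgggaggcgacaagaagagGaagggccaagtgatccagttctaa
Rpl36a-ps1 carries the letters of Rpl36a at both places.

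The ribosomal protein genes varied little within plate 1 and moved largely together within plate 2. For the 78 genes averaging 30 CPM or more, the median coefficient of variation was 3.75% in plate 1 and 14.4% in plate 2. It was 6.73% and 13.2% for all 5031 genes averaging 30 CPM or more. These genes were not matched in level to the ribosomal protein genes, whose canonical median was 1117 CPM. Genes of equal level were not compared. The same holds for the shares of all genes set beside counts of ribosomal protein genes below. Over all 6 libraries, Rps3 varied least, at 3.10%, and Rpl7a most, at 24.3%. Both the value of Rpl7a and that of plate 2 rested on the middle library of plate 2: without it, Rpl7a varied by 4.45% over 5 libraries, and the median in the remaining 2 libraries of plate 2 was 6.44%, against 6.33% for all genes. When each canonical gene was expressed as a share of the summed canonical genes of its library, 58 of 74 had a smaller coefficient of variation than on the CPM scale. In bulk RNA, fewer cells of a kind and less RNA per cell cannot be told apart.

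The movement within plate 2 came with its middle library. That library was the highest of the 6 for 54 of the 78 genes, against 38.0% of the 5031 genes, and the plate 2 library with the highest total was the lowest for 43, against 11.8%. In the middle library 67 of the 78 genes were above the average of the remaining plate 2 wells, while 47.2% of the 5031 genes were, and the median log2 difference was 0.32 for the ribosomal protein genes and -0.03 for all. Rpl4, with a log2 difference of 0.59, was the highest. These counts and medians describe 1 library and were not themselves tested. Gene by gene, Dixon's test over the 6 libraries set this library apart for 10 of 79 ribosomal protein genes, against 4.60% of 15708 genes. It set any library apart for 11, against 6.66%. That test treats the 6 wells as a single group, although they come from 2 cultures.

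A few genes went the other way in the same library. Rpl7a, a large-subunit protein (chr2:26910764-26913318, plus strand), had 999, 962 and 945 CPM in plate 1 and 960, 443 and 883 CPM in the plate 2 libraries with the lowest, middle and highest total, a log2 difference of -1.05. It was the only 1 of the 78 genes more than 2-fold lower there, against 6.88% of all 5031 genes. Rps28 had 1762, 1790 and 1778 CPM, then 1616, 1117 and 1504 CPM. Rpl27 had 1559, 1534 and 1698 CPM, then 1216, 947 and 1376 CPM. The log2 difference of the middle library was -0.48 for Rps28, -0.45 for Rpl27 and -0.42 for Rpl9, and each was at its lowest level there. These 4 genes were picked after their values had been seen. The last 200 bases of their transcripts have 41.5% GC in Rpl7a, 42% in Rpl27, 45.1% in Rpl9 and 48.1% in Rps28. The median over the 83 genes is 47%, so Rpl7a, Rpl27 and Rpl9 lie below it and Rps28 above. Over the 78 genes, which share the same libraries, Spearman's rho between this GC content and the difference of the middle library was 0.26, given as a description across genes.

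**Figure D4:**
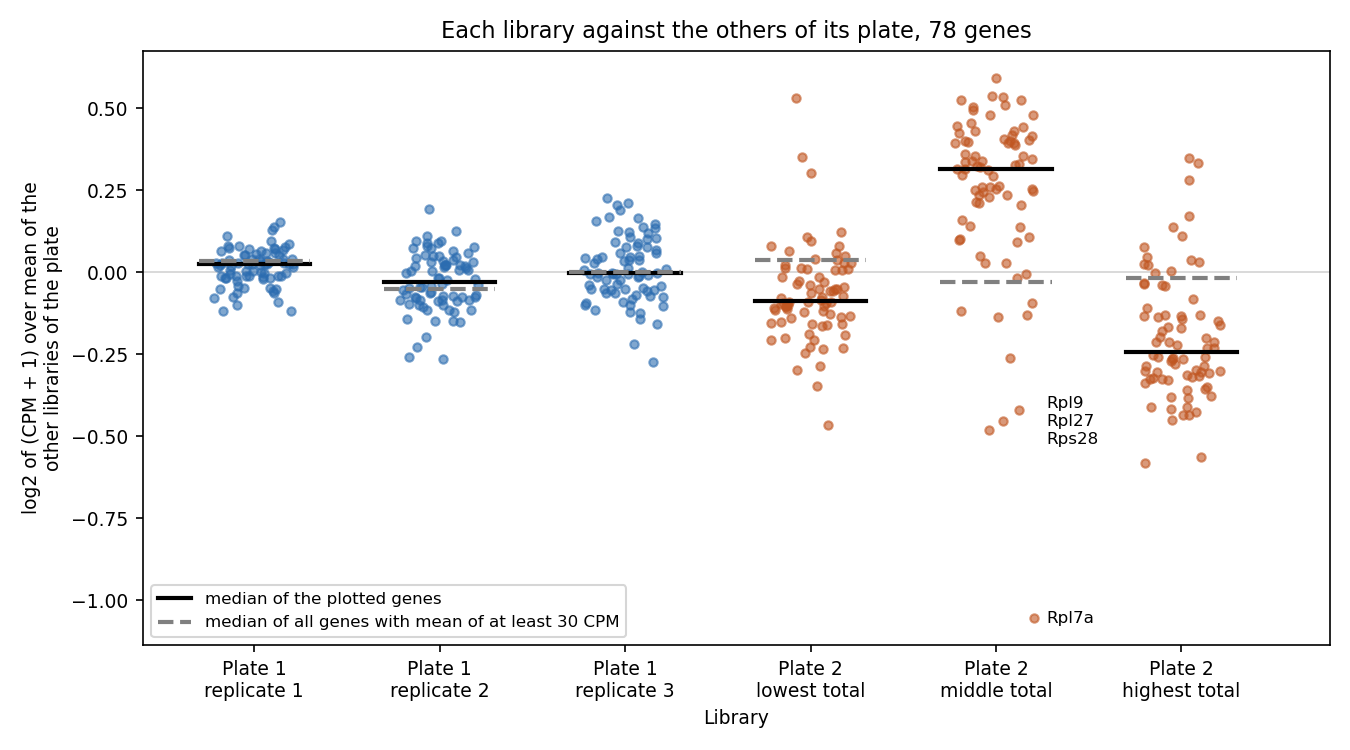
Log2 of CPM + 1 in each library over the average of the rest of its plate, for the 78 ribosomal protein genes averaging 30 CPM or more (points), with their median (black) and the median of all 5031 genes at that level (dashed grey). The points of the plate 2 middle library sit mostly above 0, with a median of 0.32, and Rpl7a lies alone at -1.05.

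Between plates, no ribosomal protein gene passed edgeR's quasi-likelihood test at an adjusted p under 0.05: 0 of 80 tested, where 29 of 15669 genes passed (0.185%). With the replicate number of the count columns as a block, 5 of all genes and 0 of the 80 passed. Rpl3l, Rpl10l and Rpl39l did not pass the filter on low counts. At an unadjusted p under 0.05, 34 of the 80 were lower on plate 2 and 0 higher, against 7.95% of all genes lower. In either direction, the count was 17 without plate 1 replicate 1 (9.81% of all genes), 18 without replicate 2 (10.2%) and 27 without replicate 3 (14.1%). Without the plate 2 library with the lowest total it was 22 (13.3% of all genes), without the middle library 71 (26.8%) and without the one with the highest total 21 (13.2%), where the fit to all 6 libraries had 34 and 16.1%. It was 9 with scaling to the total count alone, where 32.0% of all genes had such a p. limma-voom called 0 of the 80. DESeq2 called 8, all lower on plate 2 (Rpl19, Rpl22, Rpl26, Rpl27, Rpl34, Rpl36al, Rps18 and Rps28), where it called 3.00% of all genes lower. Without the plate 2 middle library, edgeR called 60 of the 80 lower and 0 higher, where 7.83% of all genes were called lower, so the count of calls rests on that library.

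The direction depended on scaling. With TMM factors, 75 of the 80 were below 0, against 45.9% of all genes tested. The median log2 fold change of plate 2 over plate 1 was -0.28 for the ribosomal protein genes and 0.03 for all genes tested. Without the plate 2 middle library, these medians were -0.42 and 0.01. With scaling to the total count alone, all genes shifted to a median of 0.30 and the ribosomal protein genes to -0.01. Under this scaling 42 of 80 were below 0, against 19.5% of all genes. None of the 80 passed the test, where 9.46% of all genes passed in either direction and 0.453% were called lower. Under both scalings of all 6 libraries, 78 of the 80 were below the median of all genes, by 0.31 in the median. On the TMM scale 39 of the 80 had all 3 plate 2 libraries below all of plate 1, against 12.0% of all genes. On the CPM scale 9 did, against 4.00% of all genes, and 7 had all plate 2 libraries above plate 1, against 35.2%. The 39 leaves out genes for which only the plate 2 middle library reached the plate 1 range, and it was not counted without that library. Rpl13, for example, had 883, 952 and 845 in plate 1 on the TMM scale. Its plate 2 libraries with the lowest, middle and highest total had 755, 998 and 639.

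**Figure D5:**
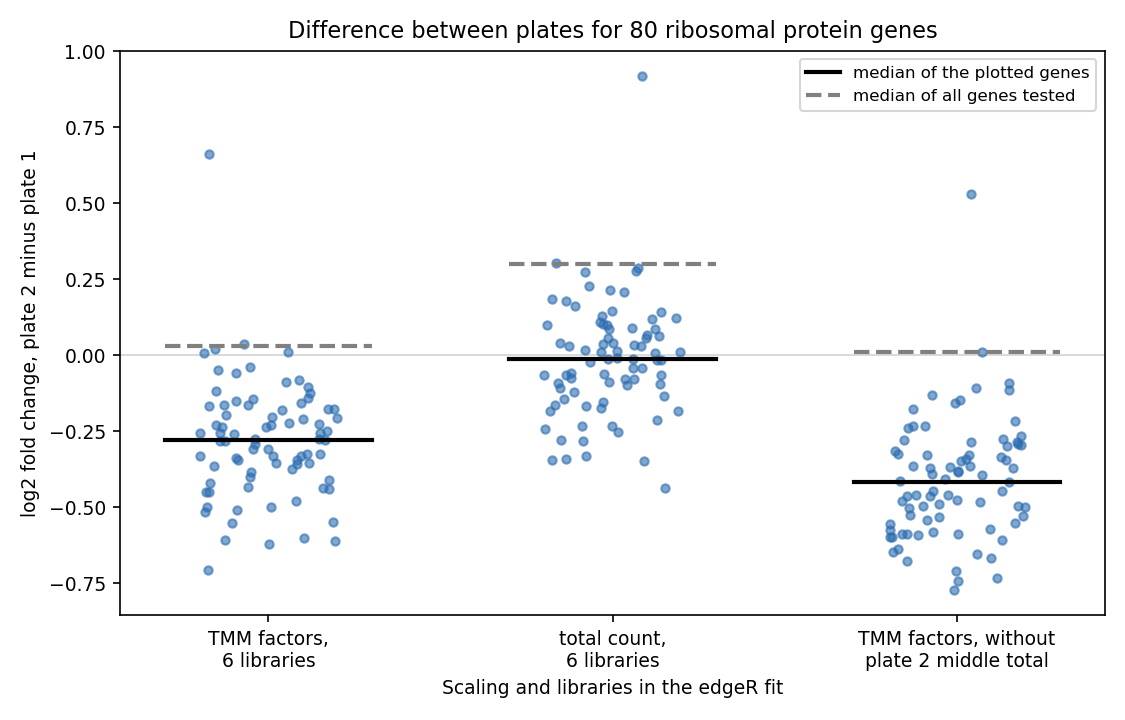
Log2 fold change of plate 2 over plate 1 for 80 ribosomal protein genes in 3 edgeR fits (points), with their median (black) and the median of all genes tested (dashed grey). In each fit 78 of the 80 lie below the median of all genes. Their own medians are -0.28 with TMM factors, -0.01 with total count scaling and -0.42 with TMM factors without the plate 2 middle library. Their place relative to 0 changes with scaling, and the highest point in each fit is Rpl10.

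Rps18, a small-subunit protein of the head, came nearest to the threshold. Its CPM, given above, did not overlap between plates, and its log2 fold change was -0.55 ± 0.10 (SE; adjusted p = 0.0782, edgeR, and 0.000644 without the middle library). With its 6 copies added, however, Rps18 had 890, 912 and 881 CPM in plate 1 and 894, 741 and 879 CPM in plate 2, and the plates overlapped. Rpl22 followed, with a log2 fold change of -0.55 ± 0.11 (adjusted p = 0.0832, edgeR, and 0.00109 without the middle library) and no overlap between plates in its CPM. Rpl27 had the lowest log2 fold change of the 80 genes, -0.71 ± 0.14 (adjusted p = 0.0912, edgeR), and its plates did not overlap either. Without the middle library, its fold change was -0.61 ± 0.09 (adjusted p = 0.000915, edgeR). Rpl10 had the highest, 0.66 ± 0.33 (adjusted p = 0.384, edgeR), at the low level described above. With its 15 copies added, Rpl10 had 1815, 1726 and 1828 CPM in plate 1 and 1906, 2316 and 1931 CPM in plate 2. No fold change was fitted to these sums.

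Genes that work with the ribosome gave the following values. Of 3 genes of ribosome components that the naming rule leaves out (Rps3a1, Fau and Rack1), Rps3a1 was highest, with 1202, 1208 and 1204 CPM in plate 1 and 1220, 1631 and 1097 CPM in plate 2, and Rack1, a scaffold protein of the small subunit, lowest, with 584, 571 and 585 CPM, then 637, 792 and 586 CPM. Both were highest in the plate 2 middle library. The median log2 fold change of the 3 between plates was -0.14, and 0 passed in either direction with edgeR. Among 17 translation factors and similar genes known for terminal oligopyrimidine starts, Tpt1 was highest (1874 CPM ± 161, SD, n = 6) and Eif4b lowest (112 CPM ± 15.2), the median fold change was -0.14, and 0 passed.

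Among 24 ribosome assembly genes the median fold change was -0.07 and 0 passed. Wdr12, which acts in maturation of the large subunit, was highest, with 2100, 2117 and 2035 CPM in plate 1 and 1332, 406 and 1596 CPM in plate 2, so that the middle library was again lowest. Polr1b, a subunit of RNA polymerase I, was lowest at 4.48 CPM ± 1.07 (SD, n = 6). Among 9 regulators, Larp1 was highest at 194 CPM ± 17.8 and Myc, a known activator of ribosome genes, lowest at 0.603 CPM ± 0.401 (SD, n = 6), the median fold change was 0.22 and 0 passed. The 78 mitochondrial ribosomal protein genes had a median level of 73.5 CPM and summed to 0.822% of the total. Their median fold change was -0.13, 59 were below 0, against 45.9% of all genes tested, and 0 passed. Mrps26 was highest, with 864, 1051 and 854 CPM in plate 1 and 667, 232 and 757 CPM in plate 2, lowest in the middle library, although the median log2 difference of that library from the rest of plate 2 was 0.22 over the 78 genes, and Mrpl23 was lowest of the list at 2.74 CPM ± 0.733 (SD, n = 6). Over all these lists, the threshold was the same adjusted p under 0.05 that 0.185% of all genes passed.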

How the data were processed

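Cells of 6 wells were profiled by QuantSeq 3′ mRNA sequencing. The authors deposited expected counts per gene, estimated with Salmon 1.5.1 on the mouse genome GRCm38 after trimming with Trim Galore 0.6.4, per the submitters' processing notes; 80 of the 83 genes have a value that is not whole. Reads that match several loci are divided among them by the estimate. Gene names came from GENCODE M21, which held 54107 of the 54281 rows. Counts were rounded and fitted with edgeR 4.0.16 (filterByExpr, TMM, robust quasi-likelihood test, Benjamini-Hochberg adjustment, threshold 0.05), plate 2 minus plate 1; DESeq2 1.42.0 and limma 3.58.1 (voom) were alternatives, with other scalings, filters and left-out libraries. The fits were tested on simulated data. No 2 libraries were alike within counting noise (smallest chi-square divided by the number of genes, 10.9). Copies were found with BLAST 2.17.0.

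The ribosomal protein genes and the lists of other genes were chosen with earlier results of these data known. Values per library are given for the 5 highest and 5 lowest canonical genes, the paralogue pairs (Rpl3 and Rpl39 by their range), the P-stalk genes and Rpsa; of each other list, the highest and lowest gene are given per library or as mean ± SD. The count columns of both plates are numbered 1 to 3. Same-numbered libraries deviated together from their plate's mean over 5031 genes (correlations 0.170, 0.160 and 0.183), so a fit with the replicate block was added after seeing the data. All other pairs were below 0. Deviations from a plate's mean sum to 0, so positive values for same-numbered pairs require negative ones among the rest. Nothing in the labels says what a number shares. Rps4l is a pseudogene in the annotation, so the pair with Rps4x was left out. Single values of 2 genes are not reported here. Start-site windows are from RefSeq (GRCm38.p6).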

Additional observations from a re-analysis of the deposited data

Results flagged for a closer look

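Of 80 values examined over the 6 libraries (the summed share and 79 genes), 11 had 1 library set apart from the rest by Dixon's test. Chance alone gives about 1 in 20, and 6.66% of 15708 genes of the table were set apart. In 10 of the 11 that library was the plate 2 library with the middle total. It was above the others for Rps16 (3924 CPM, others 3177 to 3446), Rpl13a (3133 CPM, others 2415 to 2579), Rpl30 (1838 CPM, others 1385 to 1507), Rpl32 (1725 CPM, others 1262 to 1403), Rps20 (1573 CPM, others 1142 to 1267), Rps7 (1381 CPM, others 1124 to 1218), Rpl31 (1437 CPM, others 1065 to 1175), Rpl28 (855 CPM, others 627 to 701) and Rpl10a (759 CPM, others 498 to 580). It was below the others for Rpl7a alone (443 CPM, others 883 to 999). Rpl6 was set apart by a low value in the plate 2 library with the highest total (1180 CPM, others 1423 to 1511). The genes share their libraries, so these are not 11 independent events.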

How the results depend on the processing

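The count of genes that differed between plates depended on the processing. Over all genes it was 29 with edgeR, 579 with DESeq2, 10 with limma-voom, 1482 with scaling to the total count only and 545 with no filter on low counts; leaving out 1 library gave 0 to 1911. Among the ribosomal protein genes it was 0 with edgeR, 8 with DESeq2 and 10 with no filter on low counts. With no filter, the 10 were out of 83 tested and all lower on plate 2, where 1.07% of 27022 genes were called lower. Leaving out 1 library gave 0 to 60, the 60 (and the 1911) being without the middle library of plate 2. Size factors of DESeq2, TMM factors without the ribosomal protein genes and a minimum of 10 counts in every library gave 34, 29 and 29 calls over all genes and 0 among the ribosomal protein genes. The plate difference in summed share went from -0.295 to -2.14 percentage points when totals were multiplied by TMM factors. The mean summed share was 9.95%, and 11.1% with near-identical copies added, an alternative chosen after seeing the data. The log2 ratio of Rpl36a to Rpl36al, -1.17, became -0.041 with pseudogenes named after a gene added and -0.049 with near-identical copies added (adjusted exact permutation p = 0.188 in both); the other 6 pairs kept their sign in all 6 libraries under all 5 alternatives, with the unadjusted p at the smallest value that 6 libraries allow, so it says nothing of stability, and the size ran from 1.98 to 10.9 for Rpl10 and Rpl10l, from 6.39 to 10.3 for Rpl3 and Rpl3l and from 7.91 to 13.1 for Rpl39 and Rpl39l. With 5 libraries the smallest sign-flip p is 0.0625, so those were read as values, none of which moved by more than the SD. The fit with the replicate block gave 5 calls over all genes and 0 among the ribosomal protein genes; other results have no such fit.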
